A study of Mus musculus with 6 samples.

Results

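Grainyhead-like (Grhl) and CP2 transcription factors, with the LIM-only factor Lmo4 and its Ldb cofactors, were followed in fetal mouse back skin with and without Get1, the earlier name of Grhl3. The members were the 9 genes Grhl1, Grhl2, Grhl3, Tfcp2, Tfcp2l1, Ubp1, Lmo4, Ldb1 and Ldb2, taken as all rows whose platform gene symbol was one of these names. They were 9 of 18193 genes with a probe set of their own, and 17 of 45037 probe sets. Grhl2 had 4 probe sets, Tfcp2l1 and Ldb2 had 3 each, Ubp1 had 2 and the other genes 1 each. Total RNA from the same area of back skin of 3 Get1 +/+ and 3 Get1 -/- mice at e18.5 was hybridised to 1 oligonucleotide array per mouse. The labels give no strain, sex or litter, and do not say what the mutant allele lacks. They describe whole back skin, with no cell sort. Values are MAS5 signals in arbitrary units, already scaled to one another, with group means ± SD (n = 3 per genotype).

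Grainyhead factors are conserved regulators of covering epithelia. In vertebrates they promote terminal differentiation, cell junctions and closure of the skin and neural tube, and in mice the loss of Grhl3 leaves the epidermal barrier incomplete at birth. The Grhl proteins bind DNA as dimers at closely related sites, centred on AACCGGTT, and Grhl1, Grhl2 and Grhl3 are known to overlap in their targets. The CP2 factors Tfcp2, Tfcp2l1 and Ubp1 form the other branch of the family and bind different sites. Lmo4 has LIM domains but no DNA-binding domain, is known to act with Grhl3 in epidermal development, and joins other proteins through the Ldb cofactors Ldb1 and Ldb2. The comparison asked how much Grhl3 signal remained in Get1 -/- skin, and whether a related factor or an Lmo4 partner read higher in its place.

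Promoter sequences are shown for Grhl3, the mutated gene, and for Ubp1, the only member with an exact match to a motif searched. They come from RefSeq on GRCm38.p6 and run 5′ to 3′ from 250 bases before to 50 bases after an annotated start. Of the 9 members, 7 had at least 1 such window, 13 windows in all. The motifs searched, on both strands, were AACCGGTT and, inside it, AACCGG and ACCGGT, which overlap each other. Only exact matches were counted, and variants of these motifs with another letter were not searched. Capitals mark a match.
Grhl3, chr4:135573583-135573882, minus strand: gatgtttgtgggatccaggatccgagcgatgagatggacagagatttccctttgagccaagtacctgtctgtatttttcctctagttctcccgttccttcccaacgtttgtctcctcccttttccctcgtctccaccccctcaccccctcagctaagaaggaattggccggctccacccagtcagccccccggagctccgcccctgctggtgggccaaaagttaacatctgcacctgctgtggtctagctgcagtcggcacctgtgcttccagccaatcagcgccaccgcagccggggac
Ubp1, chr9:113930898-113931197, plus strand: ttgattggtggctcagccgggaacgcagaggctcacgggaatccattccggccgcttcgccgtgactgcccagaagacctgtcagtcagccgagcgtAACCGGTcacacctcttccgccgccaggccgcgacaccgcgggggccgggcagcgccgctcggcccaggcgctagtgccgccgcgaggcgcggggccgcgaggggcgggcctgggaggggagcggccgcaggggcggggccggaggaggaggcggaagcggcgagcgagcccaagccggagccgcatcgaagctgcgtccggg
The full AACCGGTT was in 0 of the 13 member windows and in 0.146% of all 32851 windows. AACCGG was in 1 member window and in 6.83% of all windows, and ACCGGT in 1 member window and in 2.33% of all windows. Both matches were the same place of the Ubp1 window, which began at position -153 counted from the start. The other Ubp1 window and the windows of Grhl1, Grhl3, Tfcp2, Tfcp2l1, Lmo4 and Ldb1 held no exact match to these motifs.

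Probe sets were tested where their mean log2 signal over the 6 arrays reached the median of all probe sets, a signal of 137, which kept 22519 of 45037. By this filter 12 member probe sets of 8 genes were kept. The 5 left out were 2 of the 4 Grhl2 probe sets and all 3 Tfcp2l1 probe sets. With limma and Benjamini-Hochberg adjustment over the 22519, 0 of the 12 passed an adjusted p of 0.05, against 0.0266% of all kept probe sets (6 of 22519). With the replicate number as a block, 35 of 22519 passed and again 0 members. At an unadjusted p under 0.05 in the unpaired fit there were 4 of the 12, namely Grhl3, Grhl1 and Lmo4 with lower values in Get1 -/- skin and 1 Ldb2 probe set with a higher value, against 6.72% of all kept probe sets (3.76% lower, 2.97% higher). These 4 come from members picked with earlier results known, so that count is a description. Genotypes did not overlap for 3 of the 12 (Grhl3, Lmo4 and that Ldb2 probe set), against 11.1% of all kept probe sets (6.51% lower, 4.63% higher).

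The only Grhl3 probe set (1436932_at) read 478, 934 and 670 in the 3 Get1 +/+ skins and 246, 413 and 380 in the 3 Get1 -/- skins. All Get1 -/- arrays lay below all Get1 +/+ arrays, and the gap between the highest Get1 -/- and the lowest Get1 +/+ array was small beside the spread in Get1 +/+ skin. The means were 694 ± 229 and 346 ± 88.5, a log2 change of -0.98 ± 0.29 (SE), which ranked 241st by p among the kept probe sets (unadjusted p = 0.00866, adjusted p = 0.737, limma). The signal that remained in Get1 -/- skin was 50.5% of the Get1 +/+ signal, with a 95% interval of 31.9% to 80.1%. The part of Grhl3 that this probe set reads and the part deleted were not compared here, so the residual signal checks nothing about the allele. Without Get1 +/+ replicate 2, the highest array, the log2 change was -0.74, and without Get1 +/+ replicate 1, the lowest of that genotype, it was -1.23 (limma adjusted p = 0.137). With the replicate block it was -0.98, with an adjusted p of 0.129.

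Whether the residual Grhl3 signal came from Grhl3 transcript or from probe background was not tested. The 24 genes of a list known from other organs that were on the array ranged from 3.2 to 7434 in mean signal. Their median was 35.3 and their 75th percentile 53.0. The milk casein gene Csn2 stood alone at the top, with the next gene at 126. The summed signal of the list ran from 1075 on Get1 -/- replicate 3 to 24453 on Get1 -/- replicate 2, so mean signals hide large differences between arrays. Probe sets differ in how strongly they bind, so these levels cannot be set against that of Grhl3.

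**Figure D1:**
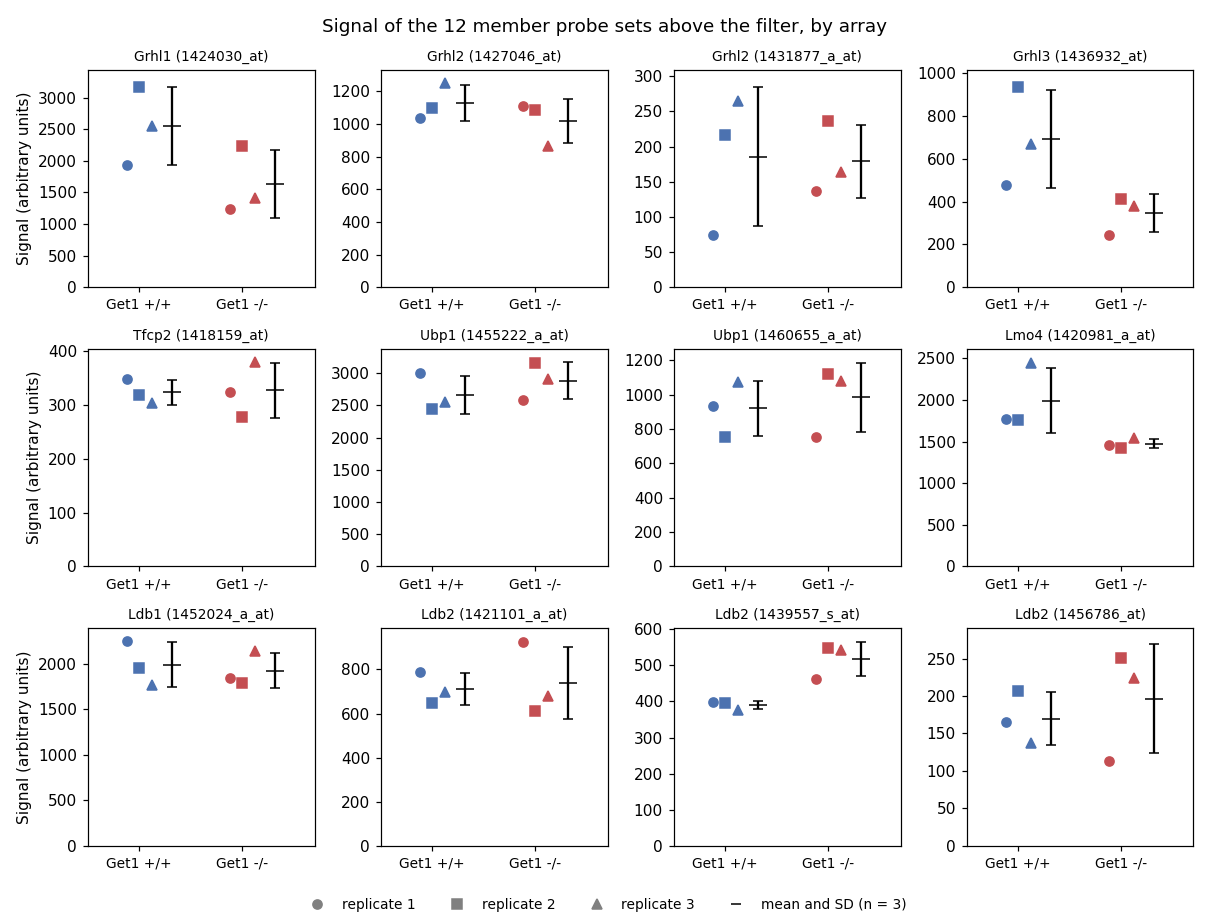
Signal in arbitrary units on a linear axis from 0 for the 12 kept member probe sets, 1 panel each, with blue points for Get1 +/+ and red points for Get1 -/- arrays, a marker shape for each replicate number, and black bars for the mean ± SD (n = 3). Genotypes are apart in the panels of Grhl3, Lmo4 and the Ldb2 probe set 1439557_s_at, where Get1 -/- arrays read 463 to 548 against 377 to 398, and overlap in the other 9.

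Grhl1, which is known for its part in desmosomes and hair anchoring, was the grainyhead relative whose values followed those of Grhl3 most closely. Its probe set read 1929, 3171 and 2557 in Get1 +/+ and 1239, 2239 and 1417 in Get1 -/- skin. Get1 -/- replicate 2 lay above Get1 +/+ replicate 1, so the genotypes overlapped. The means were 2553 ± 621 and 1632 ± 534, a log2 change of -0.66 ± 0.26 (SE; limma unadjusted p = 0.0301, adjusted p = 0.737). The 95% interval, not adjusted for the number of probe sets, put Get1 -/- signal at 42.1% to 94.6% of that in Get1 +/+ skin. It holds no increase on all 6 arrays. With single arrays left out, the unadjusted p ran from 0.0044 to 0.111 (limma), so not every such interval leaves out an increase. With the replicate block the log2 change was -0.66, with an adjusted p of 0.19 (limma). The Grhl3 change minus the Grhl1 change was -0.32 on the log2 scale, and within-array differences of the 2 genes overlapped between genotypes (exact two-sided permutation p = 0.3, 0.4 adjusted over 16 pairs).

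Grhl2, a factor of epithelial junctions and of neural tube closure, had 1 bright probe set and 3 dim ones. The bright one (1427046_at) read 1036, 1100 and 1251 in Get1 +/+ and 1109, 1088 and 866 in Get1 -/- skin, so the genotypes overlapped. Its log2 change was -0.15 ± 0.17 (limma adjusted p = 0.883), with Get1 -/- signal at 69.1% to 117.7% of Get1 +/+ signal by the 95% interval. For this probe set, a rise beyond 1.18-fold lies outside that interval, which is not adjusted for the number of probe sets. The upper end for the other kept Grhl2 probe set was 2.26-fold, so the gene is not bounded by the bright one alone. Grhl3 differed from this probe set by -0.84 in its change, and within-array differences did not overlap between genotypes (exact two-sided permutation p = 0.1, the smallest that 3 against 3 arrays allow, 0.229 adjusted over 16 pairs). The same held for 63.0% of all other kept probe sets, so it is no mark of Grhl2.

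The dim Grhl2 probe sets gave differing values. The kept one (1431877_a_at) read 74.4, 217 and 264 in Get1 +/+ and 136, 237 and 164 in Get1 -/- skin, with a log2 change of 0.10 ± 0.47. The values below the filter come from the limma fit of all 45037 probe sets. There 1452643_at read 146, 186 and 133 in Get1 +/+ and 83.6, 81.8 and 13.9 in Get1 -/- skin, all below the Get1 +/+ arrays, with a log2 change of -1.75 ± 0.67 (limma adjusted p = 0.837). In that fit 0.0155% of all probe sets passed, 5.86% had an unadjusted p under 0.05, and genotypes did not overlap in 10.8% of them (6.49% lower, 4.29% higher). Probe set 1431878_at ranged from 52.7 to 157 in Get1 +/+ and from 31.9 to 92.9 in Get1 -/- skin, with a log2 change of -0.62 ± 0.57.

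**Figure D2:**
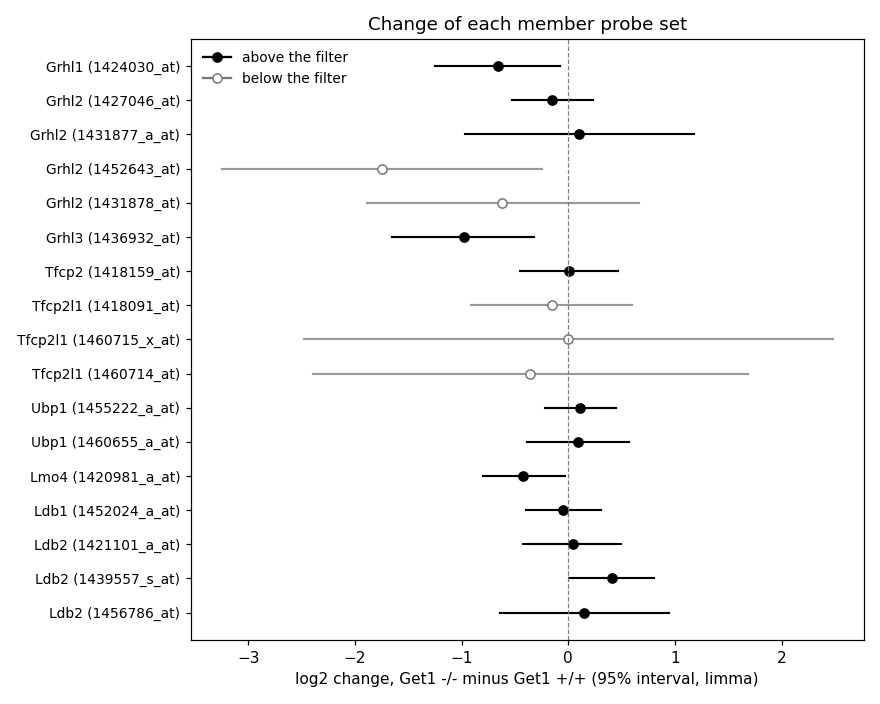
Log2 change of all 17 member probe sets, Get1 -/- minus Get1 +/+, as points with 95% intervals from limma, filled for the 12 above the filter and open for the 5 below it. The intervals of Grhl3, Grhl1, Lmo4 and the dim Grhl2 probe set 1452643_at lie below 0, and that of the Ldb2 probe set 1439557_s_at, from 0.01 to 0.80, lies above it.

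Signals of the CP2 factors lay close together in the 2 genotypes. Ubp1, a CP2 factor known from vessel and placental development, read 3003, 2443 and 2555 in Get1 +/+ and 2582, 3163 and 2910 in Get1 -/- skin with its brighter probe set (1455222_a_at), which overlap. The log2 change was 0.11 ± 0.15 (limma adjusted p = 0.902), with a 95% interval of 85.9% to 136.3% of Get1 +/+ signal. The other Ubp1 probe set ranged from 756 to 1074 in Get1 +/+ and from 755 to 1119 in Get1 -/- skin, with a log2 change of 0.09 ± 0.21. Tfcp2, also named LSF, a broadly expressed factor, read 349, 318 and 304 in Get1 +/+ and 325, 278 and 380 in Get1 -/- skin. Its log2 change was 0.01 ± 0.20 (limma adjusted p = 0.997), and its sign turned under 1 scaling alternative, quantile normalization (-0.01). For the 2 Ubp1 probe sets and Tfcp2, the upper ends of the 95% intervals were 1.36-fold, 1.49-fold and 1.38-fold.

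Tfcp2l1, a factor of kidney collecting duct and of embryonic stem cells, had no probe set above the filter. Its brightest one (1418091_at) ranged from 95.6 to 127 in Get1 +/+ and from 84.2 to 109 in Get1 -/- skin, with a log2 change of -0.15 ± 0.34. The remaining pair stayed between 1.51 and 21.7 on all 6 arrays. A higher Tfcp2l1 level was not detected, and the upper end of the 95% interval for the brightest probe set was 1.52-fold.

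Lmo4 read 1775, 1760 and 2438 in Get1 +/+ and 1463, 1428 and 1537 in Get1 -/- skin. All Get1 -/- arrays lay below all Get1 +/+ arrays, and they lay close together, with a coefficient of variation of 3.76% against 19.5%. The means were 1991 ± 387 and 1476 ± 55.5, a log2 change of -0.42 ± 0.17 (limma unadjusted p = 0.0364, adjusted p = 0.737), with Get1 -/- signal at 57.5% to 97.7% of Get1 +/+ signal by the 95% interval. Get1 +/+ replicate 3 stood above the other Get1 +/+ arrays, and without it the log2 change was -0.26. With the replicate block the adjusted p was 0.433. The Grhl3 change minus that of Lmo4 was -0.57 (exact two-sided permutation p = 0.3, 0.4 adjusted over 16 pairs).

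Ldb1, the widely expressed cofactor that bridges LIM proteins, read 2254, 1951 and 1770 in Get1 +/+ and 1848, 1787 and 2142 in Get1 -/- skin. The genotypes overlapped, and the log2 change was -0.05 ± 0.15 (limma adjusted p = 0.967; 95% interval 76.0% to 123.6% of Get1 +/+ signal). Ldb2, its paralogue, gave different answers by probe set. The probe set 1439557_s_at read 398, 395 and 377 in Get1 +/+ and 463, 548 and 543 in Get1 -/- skin, with all Get1 -/- arrays above all Get1 +/+ arrays. Its log2 change was 0.41 ± 0.17 (limma unadjusted p = 0.044, adjusted p = 0.737). The brightest Ldb2 probe set (1421101_a_at) read 788, 648 and 697 against 924, 613 and 679, a log2 change of 0.04 ± 0.20 with overlapping genotypes. The dimmest (1456786_at) ranged from 137 to 207 in Get1 +/+ and from 113 to 251 in Get1 -/- skin, a log2 change of 0.15 ± 0.35. The higher value therefore rests on 1 of 3 probe sets, one whose suffix in the array's naming marks probes that can match more than 1 transcript family.

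Across the 17 probe sets the largest spread within a genotype among those kept was a coefficient of variation of 53.4%, for the dim Grhl2 probe set in Get1 +/+ skin, and the smallest was 2.82%, for Ldb2 1439557_s_at in Get1 +/+ skin. Among the 12 kept, 5 had a negative and 7 a positive log2 change, with a median of 0.02, beside 0.0015 over all kept probe sets. The change of Grhl3 was compared with that of each of the 16 other probe sets by exact permutation, with 0 passing after adjustment, since 3 against 3 arrays cannot go below 0.10. Within-array differences did not overlap for 7 of the 16 (exact permutation p = 0.1, adjusted p = 0.229 for each), which were 2 Grhl2, both Ubp1, 2 Ldb2 probe sets and Tfcp2l1 1418091_at. Of the 11 kept ones these were 6, beside 63.0% of all kept probe sets, and their differences ran from -0.84 for Grhl2 1427046_at to -1.39 for Ldb2 1439557_s_at.

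Keratinocyte markers had lower values in Get1 -/- skin, as did Grhl3, Grhl1 and Lmo4. All 13 measured markers of a list of 14 (Krt14 and Krt10 among them) had lower means in Get1 -/- skin, and their summed signal was 174416 to 197654 against 206556 to 216828, without overlap. Their mean log2 change was -0.25. In whole skin, a smaller share of keratinocytes in the sample and less RNA of these genes per keratinocyte cannot be told apart. Relative to the mean log2 of these markers on the same array, the change was -0.74 for Grhl3 with no overlap (exact permutation p = 0.1, adjusted p = 0.425 over 17), -0.42 for Grhl1 and -0.17 for Lmo4, both with overlap. The markers behind this scale include Cdh1 and Epcam, which are also on the list of grainyhead targets below. The scale moves every change up by the same amount, the size of the marker change, so signs near 0 turn by construction. On it, all Get1 -/- arrays lay below all Get1 +/+ arrays for 1.35% of kept probe sets and above them for 19.5%. Among the members, Ubp1 1455222_a_at (0.36) and Ldb2 1439557_s_at (0.65) lay above without overlap. Grhl2 1452643_at, left out by the filter, lay below without overlap (-1.50), as Grhl3 did. Each had an exact permutation p of 0.1 and an adjusted p of 0.425.

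Markers of other cells differed in direction. Of 12 skeletal muscle markers 12 had higher means in Get1 -/- skin, with summed signals of 152322 to 216442 against 130097 to 196937. Of 12 endothelial markers, of interest because Ldb2 is known from endothelium, 10 had higher means, by a mean of 0.12 on the log2 scale, and their sums overlapped (9517 to 11859 against 9032 to 9876). Fibroblast markers went both ways, 5 higher and 7 lower, and the list of 8 hair follicle and duct genes had 2 higher and 6 lower. The defining markers Krt14 (14882 to 19929 over the 6 arrays), Col1a1, Pecam1 (1095 to 1601) and Acta1 were all measured well above the filter, as whole skin would have them. The part of these cell types in the member changes was not tested beyond the keratinocyte scale above.

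The arrays also split by the middle probe set of the beta-actin control, at 18410 to 19860 on Get1 +/+ replicates 1 and 2 and Get1 -/- replicate 1, and at 10120 to 13060 on the other 3 arrays. Grhl3 differed between genotypes by -1.44 on the former and by -0.76 on the latter, Grhl1 by -1.0 and -0.52, and Lmo4 by -0.27 and -0.72. Each of these values rests on a single array of 1 genotype. Other control probe sets did not give the same split. On the 5′ beta-actin probe set Get1 -/- replicate 3 read 19780, nearer to Get1 -/- replicate 1 (21770) than to Get1 +/+ replicate 3 (17070). The middle Gapdh probe set read 19990 to 22360 on the former arrays and 18370 to 24300 on the latter, which overlap.

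By the root mean square difference of mean-centred log2 signals over the 6 arrays, a description with no test, the 5 genes most like Grhl3 among 11386 other genes were Tlcd3a (0.094), Cptp (0.113), Tgm1 (0.121), Klk5 (0.122) and Adtrp (0.135). Tgm1 encodes the transglutaminase that crosslinks the cornified envelope and is a known grainyhead target, Klk5 a protease of desquamation, and Cptp a carrier of ceramide 1-phosphate. Tgm1 read 1131, 1995 and 1460 in Get1 +/+ and 515, 1104 and 907 in Get1 -/- skin. Its order of arrays within each genotype was that of Grhl3, which picking genes for likeness to Grhl3 nearly fixes in advance. Klk5 read 2979, 5930 and 4576 against 1396, 3085 and 2409. None of these 5 genes passed in the fit of 11387 genes (limma adjusted p from 0.38 to 0.567), in which 5 genes, 0.0439%, passed and 931 had an unadjusted p under 0.05. Among the members Grhl1 was the closest, at 0.241 and place 92, followed by Lmo4 at 0.488, while the median gene was at 0.649.

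**Figure D3:**
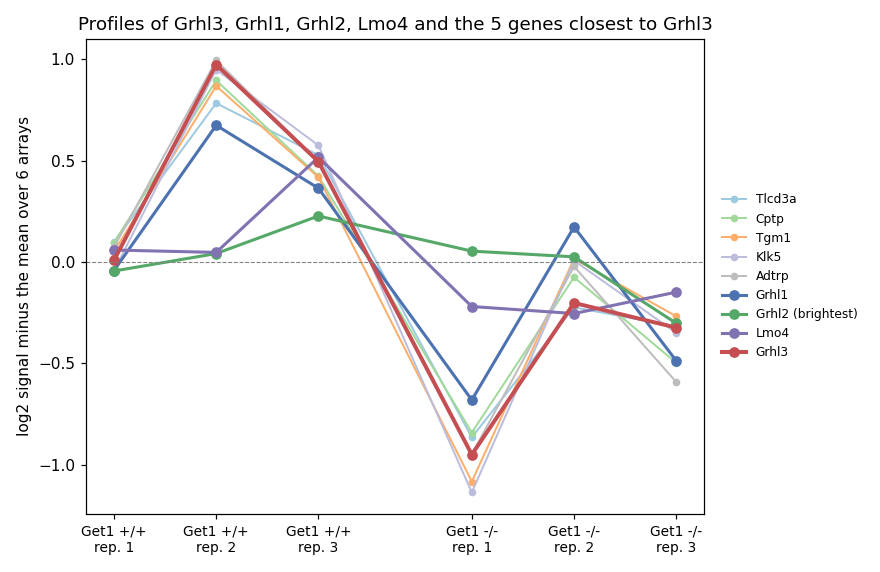
Log2 signal minus its mean over the 6 arrays, for Grhl3 (thick red), Grhl1, the brightest Grhl2 probe set, Lmo4 and the 5 genes closest to Grhl3 (thin pale lines), with arrays of each genotype along the horizontal axis; lines only join points of a gene, since replicates have no order. Grhl1 (root mean square difference from Grhl3 of 0.241) and the 5 closest genes (0.094 to 0.135) run beside Grhl3, and Grhl2 stays near 0.

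Genes regarded as grainyhead targets were taken as a list of 23, of which 16 had a kept probe set. In the gene fit 0 rose and 0 fell, with limma, against 0.0439% of all genes, while 13 had lower and 3 higher values in Get1 -/- skin, with a median log2 change of -0.31 beside 0.0076 over all genes. The keratinocyte markers, with 13 of 13 lower, had a median of -0.19, and their part in the values of this list was not tested. Of the 16, 5 had an unadjusted p under 0.05, all lower, against 4.29% of all genes for lower and 3.89% for higher values, and for 6 all Get1 -/- arrays lay below all Get1 +/+ arrays, against 6.78%, with 5.2% the other way. Cdh1 and Epcam belong to the keratinocyte markers as well, so the 2 lists are not independent.

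Cldn4, a claudin of tight junctions, read 363, 686 and 495 in Get1 +/+ and 204, 252 and 245 in Get1 -/- skin, without overlap. Its log2 change was -1.10 ± 0.25, with the smallest adjusted p of the list (limma 0.335), and without Get1 +/+ replicate 1 it passed, at -1.32 and an adjusted p of 0.0449, in a setting where 122 of all genes passed in place of 5. The next by p were the splicing regulator Esrp2, at 2640 ± 278 against 1835 ± 162 (-0.52 ± 0.15), and the epithelial trafficking factor Rab25, at 3227 ± 601 against 2200 ± 219 (-0.54 ± 0.17), both without overlap. The higher values were those of Zeb1, a mesenchymal repressor that grainyhead factors are known to hold down, at 1169 ± 391 against 1613 ± 273 (0.50 ± 0.24, with overlap), Elf3 (0.09 ± 0.20) and Dsg1b (0.06 ± 0.30). Of the 23 genes 12 had a RefSeq promoter window, and AACCGG was in those of Spint1 and Elf3 (2 of 12, 16.7%, beside 7.74% of all genes with a window). ACCGGT was in those of Spint1 and Epcam, beside 2.68% of all genes, and AACCGGTT in 0, beside 0.174%. These shares rest on few genes and short windows, and their difference from all genes was not tested. The log2 changes of Spint1, Elf3 and Epcam were -0.31, 0.09 and -0.26.

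Partners of Lmo and Ldb proteins were a list of 29, of which 16 were measured. With limma 0 rose and 0 fell, and 0 had an unadjusted p under 0.05, against 8.18% of all genes. The median log2 change was 0.06, with 10 values higher and 6 lower. Genotypes did not overlap for 2 higher and 1 lower of the 16, against 5.2% of all genes higher and 6.78% lower. Rlim, the ubiquitin ligase that acts on Ldb cofactors, read 1373, 1338 and 1052 in Get1 +/+ and 1472, 1484 and 1446 in Get1 -/- skin, without overlap (0.24 ± 0.16). The LIM-homeodomain factor Isl1 (0.61 ± 0.36) and the blood factor Tal1 (0.44 ± 0.32) were the other higher values with the smallest p, and both overlapped. Ssbp2, which stabilises Ldb1, read 1920, 2654 and 2116 against 1832, 1872 and 1650 (-0.31 ± 0.16), without overlap. Gata3, an epidermal and hair follicle factor (-0.34 ± 0.21), and Lhx2, a hair follicle stem cell factor (-0.27 ± 0.18), overlapped.

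Of 15 other genes with LIM domains 14 were measured, with a median log2 change of 0.0, and 0 rose and 0 fell with limma, while 1 in each direction had an unadjusted p under 0.05, against 4.29% of all genes lower and 3.89% higher. These were Csrp3, a muscle LIM protein (0.71 ± 0.29, 5279 ± 1963 in Get1 -/- against 3144 ± 793 in Get1 +/+ skin), and the junction-associated Ajuba (-0.39 ± 0.16, 2816 ± 296 against 3698 ± 554). Genotypes overlapped for Csrp3, whose direction was that of the muscle markers above, and did not overlap for Ajuba. Of the 14, 1 was lower and 0 higher without overlap, against 6.78% of all genes lower and 5.2% higher. Lims1 (0.29 ± 0.19), Fhl1 (0.20 ± 0.14), Csrp1 (-0.36 ± 0.18) and Limk2 (-0.25 ± 0.17) came next and overlapped.

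**Figure D4:**
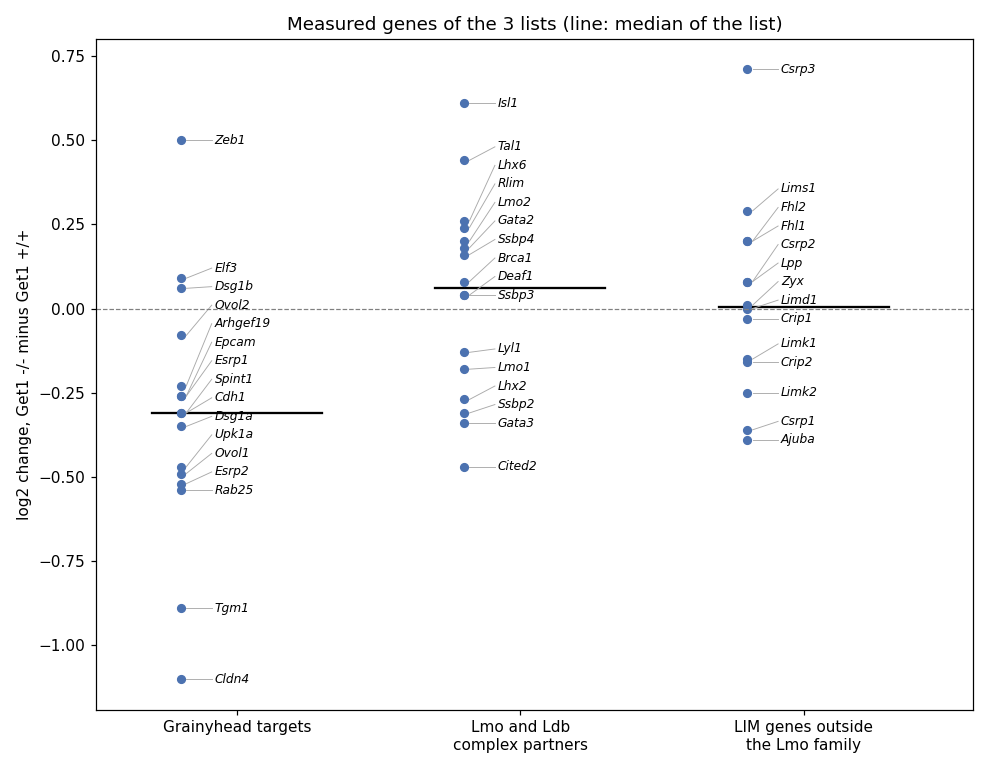
Log2 change, Get1 -/- minus Get1 +/+, of each measured gene of the 3 lists, with a black line at the median of each list. The 16 grainyhead targets centre at -0.31 with Cldn4 and Tgm1 lowest, and the other lists centre near 0 (0.06 and 0.0).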

How the data were processed

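Per the labels, the deposited signal intensities were made by the authors with MAS5 (no version given) from biotin-labelled cRNA, 1 array per mouse, 3 per genotype. The array, probe and genome files behind them were not used here. The 2% trimmed mean was 500 on every array, so no further scaling was applied. No detection calls were used. Values were turned into log2, 64 control probe sets were left out of 45101, and probe sets at or above the median mean log2 were kept. Names come from the platform annotation, and Entrez identifiers of 99.4% of probe sets with 1 symbol matched RefSeq (GRCm38.p6), with 0 symbols altered. For each of 11387 genes, its brightest probe set past the filter was used.

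The test was that of limma 3.58.1 (R 4.3.3; lmFit, eBayes with trend, two-sided, Benjamini-Hochberg, adjusted p under 0.05), and the script was tested on simulated data. Single differences used exact permutation (scipy 1.17.1). Same-numbered mice deviated together over the kept probe sets (correlations 0.133, 0.26 and 0.14, each above the limit of 0.1), which treats the numbers as pairs, but over genes only 1 of the 3 passed the limit (-0.0195, 0.361 and -0.0251). The labels name no litter or day. The unpaired fit is the main one. Alternatives were other scalings, filters, an offset of 37.6 before log2, no trend, the replicate block, array weights, leaving out single arrays and the mean of a gene's probe sets. The actin split and the keratinocyte scale, with its shares over all probe sets, were added after seeing the data.

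The members and lists were chosen with earlier results of these data known. Named genes are all members, up to 3 genes per list and direction with the smallest p, the 5 most like Grhl3, and defining markers. Csn2, Cdh1, Epcam and Spint1 were named after their values were seen. The labels say these are separate mice and do not say whether litters were shared. The p-values set the genotype difference against the spread between these mice. A litter or day that differed by genotype could not be told apart from genotype.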

Additional observations from a re-analysis of the deposited data

How the results depend on the processing

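Over up to 14 other settings, 0 of the member probe sets passed the threshold, and the smallest adjusted p (limma) was 0.129, for Grhl3 with the replicate block, which changed no member's call. Grhl3 stayed between -1.23 and -0.74 with each array left out, Grhl1 between -0.92 and -0.49, and Lmo4 between -0.50 and -0.26. On the arrays with the higher beta-actin control Grhl3 was at -1.44.

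Counts of calls moved. For probe sets (6 in the unpaired fit) they were 13 with median centring, 35 with the replicate block, and 4 to 25 with each array left out, the highest without Get1 +/+ replicate 1. For genes (5) they were 10 with median centring, 8 with array weights, 44 with the replicate block, and 3 to 122 with each array left out. Grainyhead targets had 0 to 1 call, with a median of -0.48 and -0.45 on the arrays with the higher and lower actin control. Median change was 0.16 for Lmo and Ldb partners with array weights, and 0.14 and -0.21 for the other LIM genes on the 2 sets of arrays. Of the 5 genes most like Grhl3, 4 were shared after quantile normalization. The causes were not tested.

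Changes near 0 turned sign. Tfcp2 was at -0.01 with quantile normalization and at -0.10 to 0.12 with each array left out. Ldb1 was at 0.01 with array weights and at -0.13 to 0.05 with arrays left out. Tfcp2l1 1460715_x_at was at 0.22, 0.00 and 0.03 with quantile normalization, median centring and the offset, and at -0.95 to 0.79 with arrays left out. Relative to keratinocyte markers, a scale that moves every change up by the same amount and so turns small negative values by construction, Grhl2 1427046_at was at 0.10, Tfcp2l1 1418091_at at 0.09, Tfcp2l1 1460715_x_at at 0.24 and Ldb1 at 0.20. With each array left out, ranges that crossed 0 were -0.46 to 0.46 for Grhl2 1431877_a_at, -0.89 to 0.23 for Tfcp2l1 1460714_at, -0.04 to 0.27 for Ubp1 1460655_a_at, -0.14 to 0.16 for Ldb2 1421101_a_at and -0.07 to 0.50 for Ldb2 1456786_at. Differences of the Grhl3 change from Grhl2 1452643_at ran from -0.17 to 1.43 and from Grhl2 1431878_at from -0.86 to 0.23.

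With 3 arrays per genotype, the 95% intervals for the kept probe sets of the other family factors reached from 1.18-fold (Grhl2) to 2.26-fold (the dim Grhl2 probe set) on the upper side, Grhl1 apart.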
